A study of Homo sapiens with 12 samples.

Results

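Poly-A RNA of HEK293T cells that expressed a BCL2L11 trigger was compared directly with poly-A RNA of cells that expressed a TRIM9 trigger, and no GFP control library entered the comparison. The comparison used 4 of the 12 libraries of the series, and it covered every gene that reached an FPKM of 1 in 2 or more of the 4 libraries, which were 14580 of 67053 genes. FPKM is a fragment count scaled to transcript length and library depth, and a gene's level is the sum over its transcripts. HEK293T is a human embryonic kidney line that carries the large T antigen. Each culture received 2 µg of a plasmid whose GFP reporter mRNA carried the trigger in its 3′ untranslated region, and RNA was taken 48 h later. Both groups share the line, the GFP reporter and the time, and they differ in the trigger. Cultures received the plasmid with PEI or with lipofectamine, and the reagent of each culture is not given in the sources used, so a difference in reagent between the groups was not tested. The labels give 2 biological replicates per trigger.

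A trigger of target-directed microRNA degradation is an RNA site that pairs with a microRNA (miRNA) along its seed and along its 3′ end. In this state the Argonaute protein that holds the miRNA is marked by a ubiquitin ligase that contains ZSWIM8, the protein is destroyed and the freed miRNA is lost. The site from BCL2L11 acts on both miR-221 and miR-222, and that from TRIM9 acts on miR-218. A lower level of a miRNA can raise the mRNAs that carry its seed sites. The mature miRNAs are shown because the 2 groups of cells differ in them, with bases 2 to 8, the seed, in capitals (RefSeq, GRCh38.p14).
miR-221-3p: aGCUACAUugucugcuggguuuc
miR-222-3p: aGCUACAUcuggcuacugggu
miR-218-5p: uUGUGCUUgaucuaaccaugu

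MiR-221-3p and miR-222-3p share their seed and come from a common host transcript on chromosome X, whereas miR-218-5p has another seed and is made from SLIT2 on chromosome 4 and SLIT3 on chromosome 5. In the small RNA libraries of the same groups, miR-221-3p stood at 1959 and 1803 RPM (reads scaled to a common total of miRNA reads per library) with the BCL2L11 trigger and at 5733 and 3831 with the TRIM9 trigger. MiR-222-3p stood at 2701 and 2832 against 5603 and 4545. MiR-218-5p stood at 21246 and 19102 with the BCL2L11 trigger and at 14104 and 10030 with the TRIM9 trigger. For each of the 3 miRNAs the 2 libraries with its own trigger lay below both others. The share of all miRNAs that lay apart in this way was not counted here, so this order is a description only.

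BCL2L11 and TRIM9 themselves were the genes that passed in the poly-A RNA. BCL2L11 (chromosome 2, 111119378 to 111168445, plus strand, hg38), which encodes the pro-apoptotic protein BIM, stood at 11484 and 11275 FPKM with its trigger and at 3.95 and 6.32 with the TRIM9 trigger. It rose by 10.88 on the log2(FPKM + 1) scale (SE 0.39, adjusted p = 0.00204 by limma). TRIM9 (chromosome 14, 50975262 to 51096061, minus strand), a brain-enriched ubiquitin ligase, stood at 5297 and 3948 FPKM with its own trigger and at 1.21 and 2.30 with the BCL2L11 trigger. It fell by 10.73 (SE 0.39, adjusted p = 0.00204 by limma). Each library was high for its own trigger gene alone, as its label says. Reads from the plasmid are counted in these genes, so the cells' own transcripts of either gene are not measured apart. BCL2L11 made up 2.25% and 2.99% of the summed FPKM in its libraries and TRIM9 made up 1.07% and 1.01% in its own.

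No other gene passed, so 0.00686% of the genes tested were called in each direction and 0.0137% in all. At an unadjusted p under 0.05 there were 78 genes, 52 higher and 26 lower with the BCL2L11 trigger. With 2 libraries per group the smallest p an exact permutation test allows is 0.333. Leaving out 1 library in turn gave 3 genes without BCL2L11 replicate 1, 17 without BCL2L11 replicate 2, 5 without TRIM9 replicate 1 and 8 without TRIM9 replicate 2, with the lone library assumed to vary like the others. Both BCL2L11 libraries lay above both TRIM9 libraries in 762 genes (5.23%) and below both in 1202 (8.24%), so 38.8% of the non-overlapping genes were higher. Rescaling the libraries by the median of ratios gave 956 above and 941 below, with 50.4% higher. The median difference of all genes was -0.04. With a difference of at least 1 on the log2 scale as well, 30 genes lay above (0.206%) and 15 below (0.103%). All log2 values that follow are differences, BCL2L11 minus TRIM9 trigger, of log2(FPKM + 1), and they understate the change of genes with low levels.

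Several heat shock genes, HSPA6 foremost, were higher with the BCL2L11 trigger without overlap, though none passed. These genes encode chaperones, which keep proteins folded, and their transcription is driven by the factor HSF1 when unfolded protein accumulates. HSPA6 (chromosome 1, 161524540 to 161526894), a stress-inducible HSP70 that is nearly silent in unstressed cells, stood at 267 and 163 FPKM with the BCL2L11 trigger and at 29.6 and 23.5 with the TRIM9 trigger. The groups did not overlap, and the lower BCL2L11 library was still far above both TRIM9 libraries. The difference was 2.94 (SE 0.39), with 3.13 between the replicate 1 libraries and 2.74 between the replicate 2 libraries, and it did not pass (adjusted p = 0.947 by limma). It passed without BCL2L11 replicate 2 (adjusted p = 0.00446 by limma) and without TRIM9 replicate 1 (adjusted p = 0.0351 by limma). The GFP control libraries, which were not part of the comparison, stood at 274 and 241 FPKM, near the cells with the BCL2L11 trigger.

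**Figure D1:**
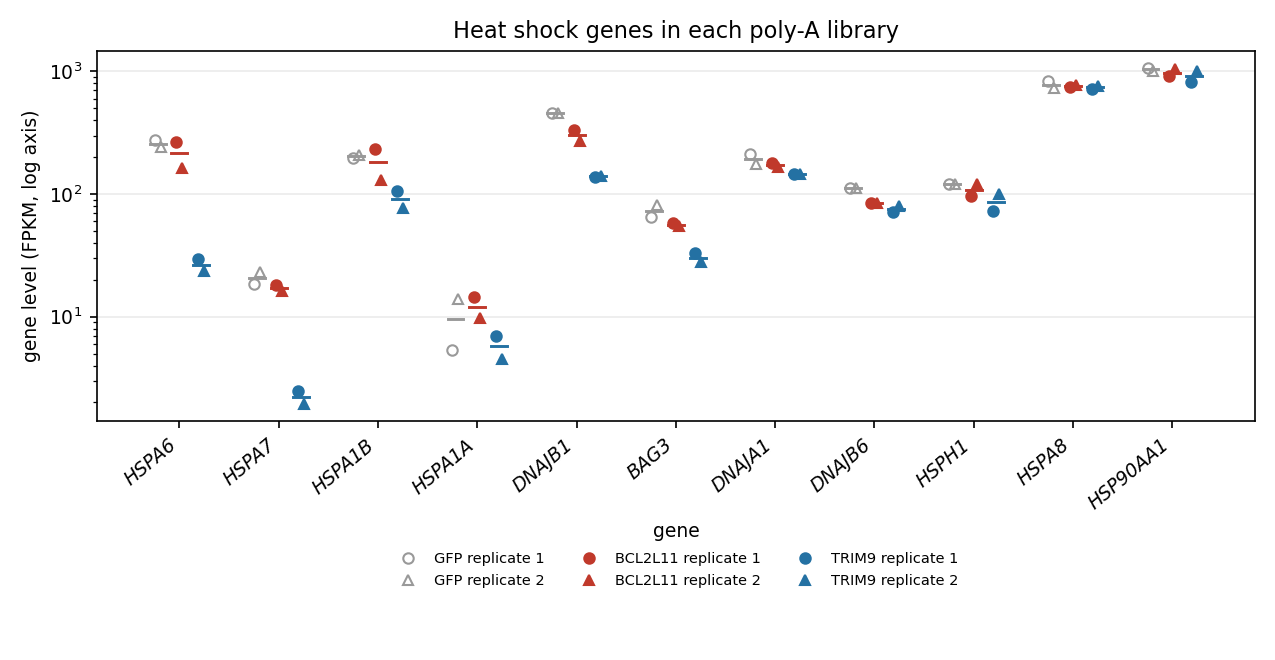
Gene level (FPKM, log axis) of 11 heat shock genes in each poly-A library; circles are replicate 1, triangles replicate 2 and bars group means, with GFP shown for reference only. HSPA6 stood at 267 and 163 with the BCL2L11 trigger and at 29.6 and 23.5 with the TRIM9 trigger, while HSPA8 stood between 723 and 834 in all 6 libraries.

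HSPA7, a near-identical copy of HSPA6, stood at 18.2 and 16.3 against 2.47 and 1.94 FPKM, with GFP at 18.4 and 23.1. Its difference was 2.51, and how reads were divided between the copies is uncertain. DNAJB1, the inducible HSP40 that hands clients to HSP70, stood at 333 and 272 with the BCL2L11 trigger and at 139 and 139 with the TRIM9 trigger, a difference of 1.11 (SE 0.35). BAG3, a co-chaperone that links HSP70 to autophagy, stood at 57.6 and 54.5 against 32.9 and 27.8, a difference of 0.87 (SE 0.32). In both genes the libraries of each group lay close together and apart from the other group, and neither passed (adjusted p = 1 by limma for each). GFP stood at 458 and 456 for DNAJB1 and at 64.8 and 80.8 for BAG3, above the BCL2L11 libraries.

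The inducible HSP70 pair HSPA1A and HSPA1B is listed at 5 loci each, on chromosome 6 and its alternate haplotypes, and the copies share reads. Summed over all of them, the pair stood at 1094 and 775 FPKM with the BCL2L11 trigger and at 557 and 461 with the TRIM9 trigger, which did not overlap. On the assembled chromosome, HSPA1B stood at 234 and 131 against 107 and 76.9, a difference of 0.94, and HSPA1A at 14.5 and 9.69 against 6.97 and 4.54, a difference of 0.95. Other members of the list differed less. DNAJA1 differed by 0.24, DNAJB6 by 0.17 and HSPD1, the mitochondrial HSP60, by 0.12, each without overlap. HSPH1 (0.32), HSP90AA1 (0.10) and HSPA8 (0.03), the abundant HSC70, overlapped between the groups, and HSF1 itself stood at 18.8 and 14.2 against 24.6 and 13.3 FPKM (-0.14). HSPB1, the small chaperone HSP27, overlapped at 151.5 and 77.4 against 182.3 and 74.9 (-0.11).

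Of the 24 listed heat shock genes 22 were tested, HSPA1L and CRYAB being too low, and none was called. Of the 22, 19 were higher with the BCL2L11 trigger in both pairs of libraries, where 22.2% of all genes were. Both BCL2L11 libraries lay above both TRIM9 libraries in 8 members (36.4%, against 5.23% of all genes), and no member lay below. The list's median was 0.19 and stayed between 0.18 and 0.28 under the 14 other settings.

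HSF1 binds the heat shock element, inverted repeats of the letters GAA. The motif GAANNTTCNNGAA was searched on both strands of the RefSeq promoters, 250 bases before to 50 after each gene's start. It occurred in 172 of 35116 promoters (0.49%). The lists were counted by gene instead, with a match in any promoter of the gene, so their shares are not in the same unit. The motif occurred in 9 of 21 listed heat shock genes (42.9%). It occurred in 0 of 18 p53 targets and in 0 of 45 histone genes. The matches in the stress-induced HSPA6, in DNAJA1 and DNAJB6 and 1 of the 2 in HSPA8 are shown, with the motif or its reverse complement in capitals, because the genes that carried them ranged from the largest difference of the list to nearly none. They lay at chr1:161524460-161524484, chr9:33025270-33025294, chr7:157336867-157336891 and chr11:123062173-123062197 (GRCh38.p14), each written along its gene's strand.
HSPA6: gaaaggTTCGCGAAAGTTCgcggcg
DNAJA1: cgggcgGAACTTTCCAGAAcgctcg
DNAJB6: agccgaGAACCTTCGCGAAggtggg
HSPA8: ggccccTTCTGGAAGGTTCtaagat

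The difference was 2.94 for HSPA6 and 0.03 for HSPA8. BAG3, DNAJB1, HSPA1A and HSPA1B, which differed without overlap, held no match to these letters in this window.

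A transcript next to HSPA1B had the lowest p after the trigger genes. AL671762.1 (chromosome 6, 31828834 to 31839719, plus strand) overlaps the end of HSPA1B and runs on through SNHG32, so reads of these genes can be split among them. It stood at 23.3 and 15.2 FPKM with the BCL2L11 trigger and at 0.919 and 0.898 with the TRIM9 trigger, with GFP at 2.82 and 5.62. Its difference was 3.38 (SE 0.36, adjusted p = 0.583 by limma). It reached the FPKM minimum through the BCL2L11 libraries alone and so had to differ. Its difference stayed between 3.09 and 4.23 over the 14 other settings.

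AC125257.1 on chromosome 17, which lies within KLHL11, stood at 11.5 and 8.34 against 0.743 and 0.972 FPKM (2.54), with KLHL11 at 0.45 and 9.43 against 5.46 and 11.7. AC125257.1 too reached the FPKM minimum through the BCL2L11 libraries alone and so had to differ. Its difference ran from 2.33 to 3.38 over the 14 other settings. AL121594.1 on chromosome 14, which overlaps PRORP and PSMA6, stood at 7.31 and 15.1 against 1.99 and 2.51 (1.84). PRORP, which encodes the mitochondrial RNase P nuclease, went the other way, at 4.41 and 4.38 against 9.10 and 8.93 (-0.89). RAB4B-EGLN2, a read-through of neighbouring genes on chromosome 19, stood at 4.31 and 3.01 against 16.9 and 9.38 (-1.56). EGLN2, the oxygen-sensing hydroxylase gene that it overlaps, stood at 30.1 and 12.04 against 10.01 and 4.55 (1.37). In each of these pairs an overlapping gene was high where the other was low, or did not follow it, and the division of reads between overlapping models is uncertain. PRORP, EGLN2 and KLHL11 were named after their values were seen.

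The other genes of lowest p had low levels. Among those higher with the BCL2L11 trigger were IL17F, a cytokine gene (1.14), C1orf189 (1.12), AC107959.2 (1.02) and the testis antigen transcript CT69 (0.97), and each of these 4 reached the FPKM minimum through the BCL2L11 libraries alone. Among those lower were MSX2P1 (-1.31), AC025165.3 (-1.30), AL162411.1 (-1.23), AL358472.6 (-1.23), BOLA2P2 (-1.22), AC016747.4 (-1.01), RUBCNL (-0.96) and POLR2KP1 (-0.86). A gene that reaches the minimum through the libraries of a single group has to differ, and which of these lower genes did so is not given here. AL358472.6 had the highest levels of these, at 8.65 and 7.27 against 24.5 and 16.2 FPKM. None of them passed (adjusted p = 1 by limma for each).

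**Figure D2:**
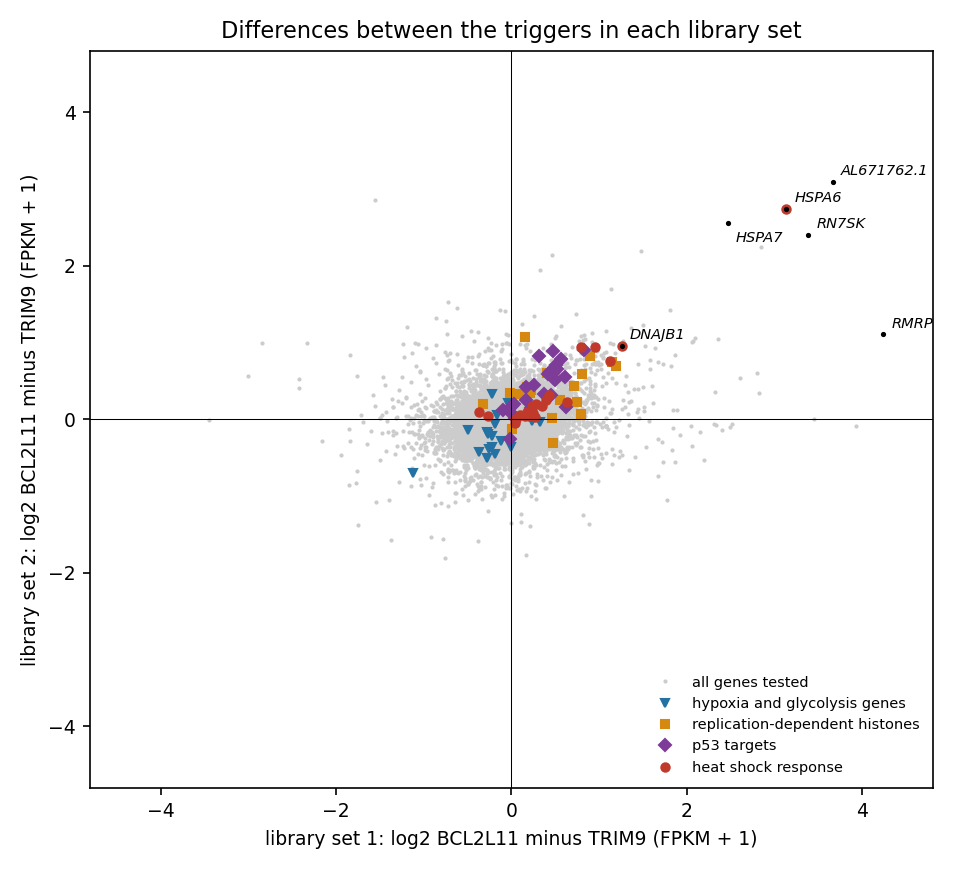
Each gene's log2 difference between the triggers (FPKM + 1) in the replicate 1 libraries (horizontal) and the replicate 2 libraries (vertical), with 4 gene lists marked and BCL2L11 and TRIM9 left outside the axes. HSPA6 lay at 3.13 and 2.74 and AL671762.1 at 3.66 and 3.10, whereas RMRP lay at 4.24 and 1.11.

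Targets of p53 were also higher with the BCL2L11 trigger, though none passed. The factor p53 switches on genes for cell cycle arrest, DNA repair and cell death, and the large T antigen in this line binds it. BTG2, an antiproliferative gene, stood at 12.9 and 15.4 FPKM against 6.82 and 7.75, a difference of 0.87 (SE 0.32). The groups did not overlap, and GFP stood at 15.0 and 15.7. CDKN1A, the p21 inhibitor of cyclin-dependent kinases, stood at 50.04 and 38.4 against 36.6 and 24.8 (0.53), so its lower BCL2L11 library was close to the higher TRIM9 library. DDB2, a DNA damage sensor, differed by 0.68, GDF15, a secreted stress cytokine, by 0.59, GADD45A, a growth arrest gene, by 0.58 and AEN, an apoptotic nuclease, by 0.50, each without overlap. MDM2, the ligase that removes p53, overlapped at 15.1 and 25.9 against 10.8 and 20.5 (0.39). None of the 23 members passed. Of them 22 were higher, where 5977 of all 14580 genes were, and 9 lay above without overlap (39.1%, against 5.23% of all genes). The median was 0.39, with 0.38 between the replicate 1 and 0.42 between the replicate 2 libraries. The list's median stayed between 0.32 and 0.46 under the 14 other settings.

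Several RNAs that carry no poly-A tail differed too, and the part of poly-A selection in this was not tested. RN7SK, the RNA that holds the elongation factor P-TEFb inactive, stood at 182 and 42.0 FPKM with the BCL2L11 trigger and at 16.6 and 7.11 with the TRIM9 trigger (2.90, SE 0.77), with GFP at 202 and 70.0. RMRP, the RNA of RNase MRP, stood at 26.8 and 2.92 against 0.469 and 0.816 (2.68, SE 0.90). RPPH1, the RNA of RNase P, stood at 15.5 and 6.17 against 3.71 and 1.68 (1.61). The groups did not overlap in these 3, and BCL2L11 replicate 1 was the highest of the 4 libraries in each. SNORA73B went the other way, at 0.825 and 2.74 against 4.08 and 3.23 (-0.83). RN7SL1 and RN7SL2, near-identical RNAs of the signal recognition particle, overlapped, at 306.5 and 22.8 against 85.6 and 30.4 for RN7SL1 and at 415.8 and 24.05 against 92.7 and 27.1 for RN7SL2. They were higher with the BCL2L11 trigger in replicate 1 (1.83 and 2.15) and lower in replicate 2 (-0.40 and -0.17). Of 22 listed RNAs 7 were tested, none passed, and 3 lay above without overlap (42.9%, against 5.23% of all genes), RMRP among them, which reached the FPKM minimum through the BCL2L11 libraries alone. The list's median was 1.22, with 0.24 without BCL2L11 replicate 1, 2.56 without BCL2L11 replicate 2, 1.86 without TRIM9 replicate 1 and 0.74 without TRIM9 replicate 2. RN7SK differed by 1.85 to 3.94 over the 14 other settings. RMRP, which had to differ under the filter used, ran from 1.265 to 4.09 over 13 other settings. The summed level of the list was 970 and 106 FPKM against 209 and 73.6, so it was higher with the BCL2L11 trigger in each replicate but not without overlap.

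Replication-dependent histone mRNAs end in a stem-loop in place of a poly-A tail. Of the 20 tested, 18 were higher with the BCL2L11 trigger, where 5977 of all 14580 genes were. H2BC11 stood at 8.21 and 4.92 FPKM against 3.18 and 2.54 (0.94), and H2BC17 at 3.4 and 4.23 against 0.931 and 2.24 (0.94). H4C8 stood at 2.05 and 1.98 against 0.644 and 0.681 (0.86), and H2BC4 differed by 0.53. The groups did not overlap in these 4. None of the 20 passed, 8 lay above without overlap (40.0%, against 5.23% of all genes) and the median was 0.42. Of 49 listed histone genes, 2 of those tested, H4C8 and H2BC4, reached the FPKM minimum through the BCL2L11 libraries alone. These 2 therefore had to differ without overlap, and they are counted among the 8. With an FPKM of at least 5 as the minimum, 5 were tested and 0 lay apart. The RNAs without a poly-A tail had a positive median like the histone, heat shock and p53 target lists, and their part in those results was not tested.

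**Figure D3:**
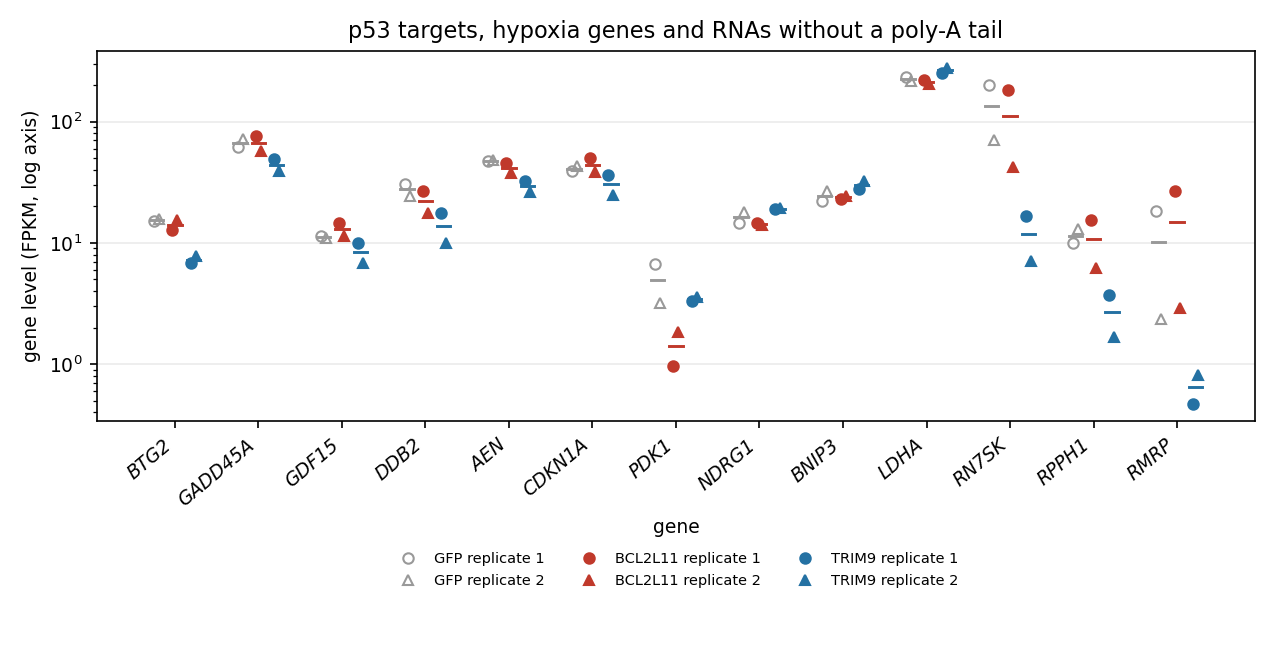
Gene level (FPKM, log axis) of 6 p53 targets, 4 hypoxia genes and 3 RNAs without a poly-A tail in each poly-A library; circles are replicate 1, triangles replicate 2 and bars group means, with GFP shown for reference only. PDK1 stood at 0.975 and 1.84 with the BCL2L11 trigger against 3.29 and 3.62, the opposite order to BTG2, and RN7SK spread from 182 to 42.0 within the BCL2L11 group.

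Hypoxia and glycolysis genes were lower with the BCL2L11 trigger, though none passed. PDK1, a pyruvate dehydrogenase kinase, stood at 0.975 and 1.84 FPKM against 3.29 and 3.62 (-0.91, SE 0.34), with GFP at 6.68 and 3.22. NDRG1 stood at 14.6 and 14.1 against 19.2 and 19.2 (-0.40), BNIP3, a mitophagy receptor, at 23.0 and 24.6 against 27.6 and 32.4 (-0.32), and LDHA, lactate dehydrogenase, at 223 and 203 against 253 and 280 (-0.32). These 4 did not overlap between the groups. BNIP3L, a relative of BNIP3, overlapped at 7.25 and 9.77 against 8.99 and 14.2 (-0.39). None of the 18 tested passed, and 14 were lower, where 8603 of all 14580 genes were. In both pairs of libraries 13 were lower, where 36.1% of all genes were. Without overlap 8 lay below (44.4%, against 8.24% of all genes). The median was -0.22, with -0.34 to -0.11 over the 14 other settings. After rescaling by the median of ratios 6 lay below without overlap.

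Stress and signalling genes differed in both directions. ATF3, a stress-induced transcription factor, stood at 79.2 and 80.8 FPKM against 40.2 and 48.6 (0.84), with GFP at 123 and 141. DUSP1, a phosphatase of MAP kinases, differed by 0.51, whereas the growth factor-induced transcription factor genes EGR1 (1.65 and 3.04 against 4.31 and 5.11, -0.80) and JUNB (6.90 and 6.71 against 14.4 and 9.24, -0.68) were lower. Of 24 immediate early genes tested none passed, 5 lay above and 6 below without overlap (20.8% and 25.0%, against 5.23% and 8.24% of all genes), and the median was -0.02. In the unfolded protein and integrated stress response, PPP1R15A (0.60) and DDIT3 (0.39), which act downstream of the factor ATF4, overlapped between the groups. The overlap of PPP1R15A was narrow, with BCL2L11 replicate 2 at 26.097 FPKM and TRIM9 replicate 1 at 26.106. Of its 25 genes, none passed and the median was -0.01. Without overlap 5 lay above (20%) and 2 below (8.00%), against 5.23% and 8.24% of all genes. Above lay ATF3, counted in both lists, SESN2 (0.29), HSPA5 (0.22), HSP90B1 (0.18) and HYOU1 (0.16). Below lay CEBPB (-0.31) and ASNS (-0.26).

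Mitochondrially encoded genes, among the most abundant RNAs in these libraries, included MT-ATP6 at 3859 and 4445 FPKM against 5267 and 5466 (-0.37), and MT-CO3 (-0.34) and MT-ND4 (-0.31) likewise without overlap. Of the 13, none passed, 3 lay below (23.1%, against 8.24% of all genes) and the median was -0.22. MT-CO2 overlapped at 5170 and 3756 against 5849 and 4601 (-0.24). Of 23 genes of cholesterol synthesis and uptake, none passed, 3 lay below (13%), HSD17B7 (-0.33) among them, and the median was -0.13. INSIG1, which holds the sterol sensor in the endoplasmic reticulum, overlapped at 25.9 and 47.9 against 37.6 and 64.1 (-0.47). Of 27 cell cycle and replication genes, none passed, 1 lay above (3.7%, against 5.23% of all genes) and 2 below (7.41%), and the median was -0.03. CCND1, cyclin D1, stood at 4.98 and 5.60 against 6.84 and 6.28 (-0.27), without overlap, and RRM2 (-0.24) and CDC6 (0.21), both needed for DNA replication, overlapped.

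Of the interferon response 10 of 28 listed genes were tested, and none passed. IFI27 stood at 1.62 and 1.25 FPKM against 0.423 and 0.545 (0.71), reaching the minimum through the BCL2L11 libraries alone. IRF1 (-0.44), STAT2 (-0.37) and IFIT1 (-0.33) lay below without overlap, among 4 such genes (40%, against 8.24% of all genes). IFIT1 reached the minimum through the TRIM9 libraries alone. Of 6 NF-kappaB targets tested none passed. RELB, a subunit of NF-kappaB, alone lay apart (16.7% of the 6), at 0.871 and 1.07 against 2.29 and 1.41 (-0.52).

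**Figure D4:**
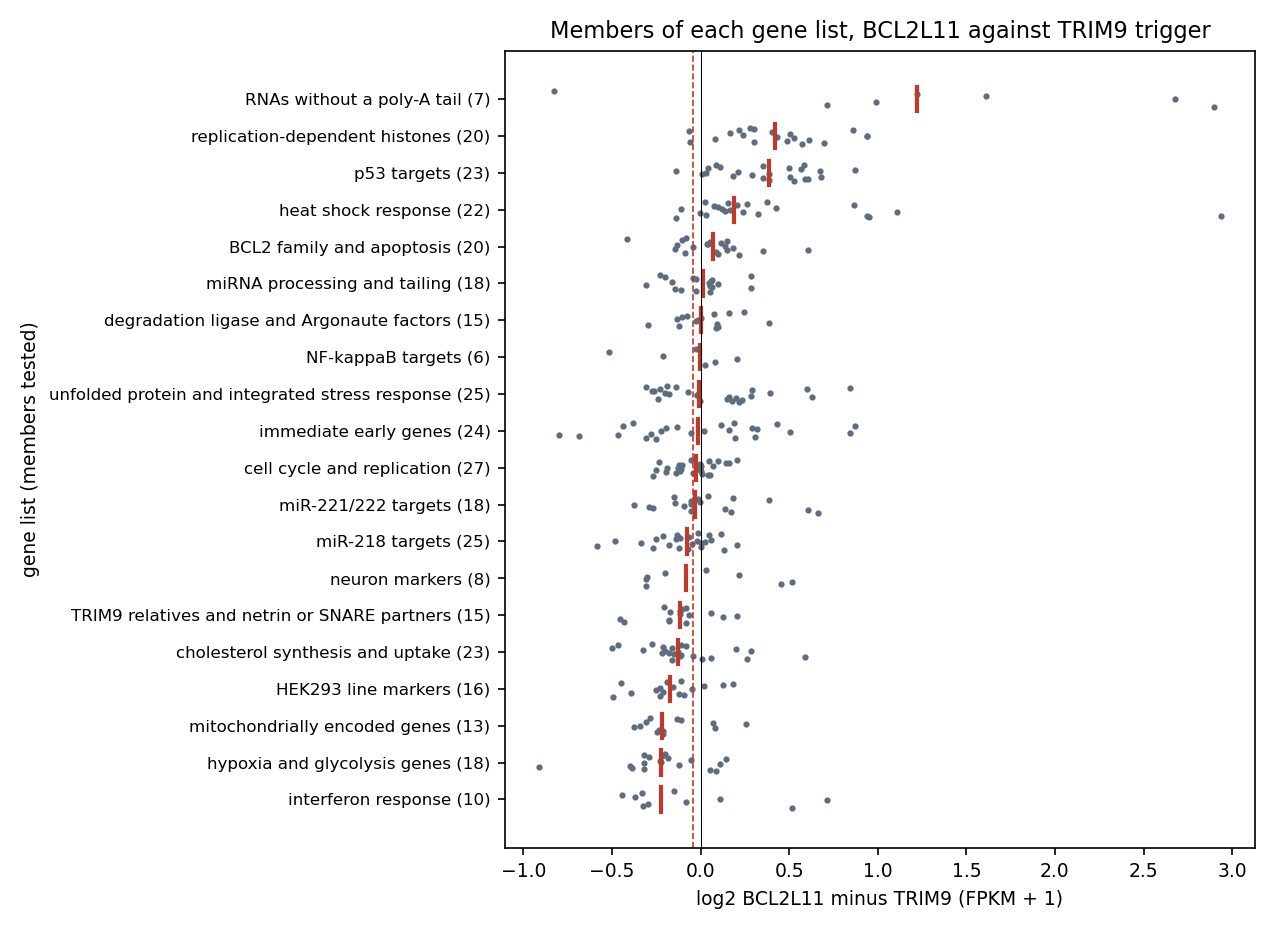
Log2 difference of each tested member (points) of the gene lists with at least 6 such members, BCL2L11 minus TRIM9 trigger on the log2(FPKM + 1) scale, without the trigger genes; red bars are list medians and the dashed line the median of all genes tested. Medians ran from -0.22 for interferon and hypoxia genes to 1.22 for RNAs without a poly-A tail, with target lists of the miRNAs near the dashed line.

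Known targets of the triggers' miRNAs had medians near that of all genes. Of 23 listed targets of miR-221 and miR-222, 18 were tested and none passed. With the BCL2L11 trigger 7 were higher and 11 lower, where 5977 and 8603 of all 14580 genes were. Without overlap 1 lay above (5.56%) and 3 below (16.7%), against 5.23% and 8.24% of all genes. The median was -0.03, with -0.31 to 0.30 over the 14 other settings. CDKN1B, the p27 inhibitor of cyclin-dependent kinases and the best known target of these miRNAs, was the member above, at 24.5 and 36.0 FPKM against 16.5 and 20.5. Its difference was 0.66 (SE 0.35, adjusted p = 1 by limma), with GFP at 20.8 and 27.1. DDIT4, an mTOR inhibitor, stood at 58.3 and 52.2 against 75.5 and 68.2 (-0.37), and TIMP3, an inhibitor of matrix proteases, at 2.58 and 3.32 against 3.68 and 3.80 (-0.27), both without overlap. BBC3, which encodes the pro-apoptotic PUMA, overlapped at 31.8 and 14.6 against 22.1 and 8.57 (0.61).

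Of 31 listed targets of miR-218, 25 were tested and none passed. There were 8 higher and 17 lower with the BCL2L11 trigger, where 5977 and 8603 of all 14580 genes were. In both pairs of libraries 12 were lower and 1 higher, where 36.1% and 22.2% of all genes were. Without overlap 2 lay below (8.00%, against 8.24% of all genes) and 0 above. The median was -0.07, with -0.30 to 0.10 over the 14 other settings. ACTN1, an actin crosslinker, stood at 9.09 and 11.04 FPKM against 12.4 and 11.8 (-0.25). GJA1, the connexin 43 gene, overlapped at 9.56 and 20.5 against 13.02 and 30.6 (-0.48), as did CDK6, a G1 kinase, at 2.40 and 4.74 against 2.99 and 6.80 (-0.34). ROBO1, the receptor of SLIT proteins, stood at 6.16 and 17.1 against 3.63 and 22.2 (0.13). GJA1, CDK6 and ROBO1 differed more between the replicates of a group than between the triggers.

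The host transcript of miR-221 and miR-222, MIR222HG, stood at 15.4 and 16.98 FPKM with the BCL2L11 trigger and at 20.7 and 28.5 with the TRIM9 trigger (-0.56, SE 0.33, adjusted p = 1 by limma), without overlap and with GFP at 17.01 and 15.7. SLIT2, a host of miR-218, overlapped at 9.30 and 21.1 against 11.6 and 23.9 (-0.23), and SLIT3 was too low to be tested. The miRNAs' own levels were given above, and the part of the host transcript in them was not tested.

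Genes of the machinery that carries out the degradation overlapped between the groups. ZSWIM8 stood at 10.8 and 8.997 FPKM against 9.98 and 8.56 (0.09), and AGO2, the slicing Argonaute, at 3.11 and 7.74 against 3.75 and 6.54 (0.00). ELOC, an adaptor of the ligase, stood at 48.5 and 55.6 against 76.6 and 53.6 (-0.30). Of 15 such genes tested none passed, 0 lay above or below without overlap and the median was 0.00. Of 18 genes of miRNA processing and tailing none passed and 0 lay apart, with a median of 0.01; USB1, a trimming exonuclease, stood at 19.3 and 16.1 against 23.3 and 17.9 (-0.20).

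Relatives of the trigger genes were compared without BCL2L11 and TRIM9 themselves. Of 20 genes of the BCL2 family and apoptosis none passed, 0 lay above and 1 below (5%, against 8.24% of all genes), and the median was 0.07. The 1 below was HRK, a BH3-only gene like BCL2L11, at 2.38 and 2.60 FPKM against 3.01 and 2.65 (-0.13). BAX, the pore-forming effector of apoptosis, stood at 119 and 48.2 against 91.9 and 38.2 (0.35), overlapping. Of 15 TRIM9 relatives and netrin or SNARE partners none passed and the median was -0.11. Without overlap 1 lay above and 1 below (6.67% each, against 5.23% and 8.24% of all genes). NTN1, the guidance ligand netrin-1, lay above at 3.36 and 3.71 against 2.82 and 3.04 (0.21), and TRIM46, an axonal relative of TRIM9, lay below at 0.675 and 0.509 against 1.21 and 1.09 (-0.43), having reached the minimum through the TRIM9 libraries alone.

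Aligned bases came to 4.29 and 4.09 Gb in the BCL2L11 libraries and to 4.52 and 3.999 Gb in the TRIM9 libraries, and no 2 of the 6 poly-A libraries held identical values (0 of 15 pairs). Markers of the HEK293 line were present, 16 of 18 tested with a median of -0.17, with VIM at 378 and 379 FPKM against 500 and 408 and IRS4 at 9.46 and 65.4 against 15.97 and 80.3. IRS4 differed between the replicates of each group far more than between the triggers. Of 14 fibroblast markers 5 were tested, ACTA2 at 12.1 and 6.57 against 6.83 and 1.91 (1.06), and the median was 0.13. Among those not tested, COL1A2 stood at 1.556 in BCL2L11 replicate 1 and was listed at 0 in the other 3 libraries, and COL3A1 stood at 1.685 there and at 0.106 to 0.288 in the others. Summed blood markers stood at 13.2 and 8.40 against 17.8 and 9, with 6 of 15 listed at 0 in all 4 libraries. Of the 4 tested, the alpha-globin genes HBA1 (5.61 and 2.71 against 7.45 and 3.77) and HBA2 (3.95 and 2.39 against 5.745 and 3.18) were the highest. CD14 alone of the 4 went the other way (0.37). In bulk RNA, fewer cells of a type and less RNA per cell cannot be told apart.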

How the data were processed

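Cells of 1 line were transfected with either trigger plasmid and sequenced as poly-A RNA in 2 libraries per group. STAR, StringTie 2.1.3, cutadapt 3.4 and DESeq2 1.20.0 with hg38 are named in the submitters' processing notes, without their roles. Per the file headers, the authors' deposited StringTie tables list 250719 transcripts per library, each with its FPKM and its coverage signal (read depth averaged over its bases). The deposited miRNA table gives raw read counts per mature miRNA, scaled here to RPM over all miRNA reads (5018875 to 6091151 reads per library) and not tested.

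FPKM was summed over the transcripts of a gene. The log2(FPKM + 1) values went into limma 3.58.1 (R 4.3.3; trend, group only, 4 libraries, two-sided p, Benjamini-Hochberg over all 14580 genes, threshold 0.05). The filter was FPKM of at least 1 in 2 libraries; 81 genes passed it only through BCL2L11 libraries and 100 only through TRIM9 libraries. Unplaced and alternate sequences held 949 of the genes tested, and 514 symbols stood for several tested loci. Replicate 1 libraries have title numbers 2 and 3 and replicate 2 libraries 5 and 6; no label pairs them or names a batch. P-values measure the spread between these libraries.

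The members and gene lists were chosen with earlier results of these data known, so lists were described by counts and medians, with no list test. Named were the genes that passed, the 10 of lowest p per direction, in each list up to 4 members of lowest p, members of the target, host, ligase and trigger-relative lists, and abundant genes; fewer are printed for some. Also named, after their values were seen, were HSPA1B, HSPA8, HSP90AA1, HSPH1, HSPD1, DNAJA1, DNAJB6, HSF1, CDKN1A, AEN, LDHA, DUSP1, HSPB1, RN7SL1, RN7SL2, COL1A2, COL3A1, PRORP, EGLN2 and KLHL11. The same holds for SESN2, HSPA5, HSP90B1, HYOU1, CEBPB and ASNS. Settings varied were median of ratios, quantile normalisation, pseudocount 0.1, FPKM of at least 5, no filter, no trend, all 6 libraries, a term for the replicate number, assembled chromosomes and leaving out each library. Promoter and miRNA sequences came from RefSeq, GRCh38.p14.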

Additional observations from a re-analysis of the deposited data

How the results depend on the processing

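BCL2L11 and TRIM9 alone passed with median of ratios, quantile normalisation, a pseudocount of 0.1, FPKM of at least 5, no trend, all 6 libraries in 1 fit and assembled chromosomes only. Without a filter on low values, 0 genes passed by limma (985 at an unadjusted p under 0.05), and BCL2L11 (10.88) and TRIM9 (-10.73) had an adjusted p of 0.136. Leaving out 1 library in turn gave 3 to 17 genes. Non-overlapping genes came to 1964, to 937 with FPKM of at least 5 and to 7135 without a filter. The cause of these changes was not tested.

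No label pairs the libraries by replicate number. The differences between replicate 1 and 2 libraries correlated at 0.84 between the triggers across genes, which are not independent. With the replicate block 8224 genes passed for the replicate number and 5 genes passed (1371 at an unadjusted p under 0.05): BCL2L11, TRIM9, HSPA6 (adjusted p = 0.0137 by limma), HSPA7 (0.0155) and AL671762.1 (0.0189). Of these, AL671762.1 reached the FPKM minimum through the BCL2L11 libraries alone and so had to differ. With all 6 libraries and the block 3 passed, HSPA6 among them (0.0357).

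When 1 library was left out, these genes changed sign, over log2 differences of -1.07 to 0.10 for GJA1, -0.82 to 0.15 for CDK6, -0.78 to 0.32 for SLIT2, -0.035 to 0.21 for ZSWIM8, -0.29 to 0.998 for BAX, -1.03 to 1.30 for ROBO1, -0.54 to 0.55 for AGO2 and -0.56 to 0.29 for HSF1. The same held over -0.049 to 0.82 for MDM2, -0.011 to 0.073 for HSPA8, -0.05 to 0.24 for HSP90AA1, -0.03 to 1.24 for BBC3, -1.83 to 0.84 for IRS4, -0.75 to 0.53 for HSPB1, -1.13 to 2.56 for RN7SL1 and -1.03 to 3.02 for RN7SL2. AGO2 also changed sign with a pseudocount of 0.1 (-0.012). Of these genes only RN7SL2 passed by limma in any setting tried, without BCL2L11 replicate 2 (adjusted p = 0.0233). Groups by seed matches in 3′ untranslated regions were not run, since no such sequences were used here. With 2 libraries per group, differences within a gene's SE were not detectable. Far larger ones also did not pass in the main fit, such as that of HSPA6 at 2.94 (SE 0.39).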
